A study of Homo sapiens with 38 samples.

Results

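The genes described here are 47 interferon-stimulated and RNA-sensing genes, taken as a fixed list of symbols from 58425 annotated genes, and each symbol was found among the genes of the deposited tables. The list holds 8 sensors and adaptors (RIGI, IFIH1, DHX58, TLR3, CGAS, MAVS, STING1 and TBK1) and 5 transcription factors (IRF1, IRF3, IRF7, IRF9 and STAT2). Its other members are 4 IFIT genes, 4 OAS genes, 10 restriction factors such as MX1, BST2 and the IFITM genes, 2 enzymes that bind double-stranded RNA (EIF2AK2 and ADAR), 4 genes of ISG15 conjugation and 10 other induced genes. The list names genes by their known roles and has no threshold on a measured value, but it was drawn up with earlier results of these data known.

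The study asked what loss of Argonaute proteins, the proteins that carry small RNAs to their targets, does to RNA in the nucleus and in the cytoplasm of HCT116, a diploid cell line from a human colorectal carcinoma. Total RNA depleted of ribosomal RNA was sequenced from both fractions of wild-type cells and of 4 CRISPR-edited knockout lines. The single knockouts are AGO1-/- and AGO2-/-, the multiple knockouts AGO1/2-/- and AGO1/2/3-/-, and each of the 10 groups holds 3 libraries, 30 in all. The 3 libraries of a group are passages of 1 line: passages 27, 28 and 29 of wild type, 6, 7 and 8 of AGO1-/-, 8, 9 and 10 of AGO2-/-, 9, 10 and 11 of AGO1/2-/-, and 11, 12 and 14 of AGO1/2/3-/-. Values below follow that order. No group received interferon or any other agent according to the labels. Because each genotype is a single edited line, its genotype, its clonal history and its passage number cannot be told apart, and p-values measure the spread between passages of a line. In bulk RNA of this kind, fewer cells expressing a gene and less of its RNA per cell cannot be told apart.

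Cells detect foreign RNA with receptors that read double-stranded or 5′-triphosphate RNA. RIG-I (encoded by RIGI) and MDA5 (IFIH1) signal through the mitochondrial adaptor MAVS, TLR3 signals from endosomes, and cGAS with STING1 responds to cytosolic DNA. These routes meet at the kinase TBK1, which activates IRF3. Interferon secreted in response acts through its receptors on a complex that holds STAT2 and IRF9 and binds the interferon-stimulated response element (ISRE) in promoters, which raises the interferon-stimulated genes. Several of these genes also have a basal level without interferon.

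Promoter windows of 8 members are shown because they carry the ISRE letters in genes called higher (IFIT1, IFIT3, IFI6, BST2 and PARP9), in a gene called lower in the nucleus (DDX60) and in genes at or near background in these cells (ISG15 and RSAD2). Each is 30 bases, read 5′ to 3′ along the gene from RefSeq (GRCh38.p14), and capitals mark the letters GAAANNGAAA or their reverse complement TTTCNNTTTC.
IFIT1 (chr10:89392503-89392532, plus strand): ttagTTTCACTTTCcccTTTCGGTTTCcct
IFIT3 (chr10:89327865-89327894, plus strand): tttaaattagTTTCACTTTCcagtttcctc
IFI6 (chr1:27672266-27672295, minus strand): gcagagtgcaGAAATAGAAActccgacagg
BST2 (chr19:17405738-17405767, minus strand): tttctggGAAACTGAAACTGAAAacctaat
PARP9 (chr3:122564322-122564351, minus strand): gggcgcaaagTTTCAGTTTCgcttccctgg
DDX60 (chr4:168318786-168318815, minus strand): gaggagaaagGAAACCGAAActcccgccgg
ISG15 (chr1:1013377-1013406, plus strand): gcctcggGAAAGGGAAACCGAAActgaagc
RSAD2 (chr2:6877622-6877651, plus strand): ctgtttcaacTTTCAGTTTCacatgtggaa

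Of the 47 members, 36 had a promoter entry covering 250 bases before to 50 bases after a RefSeq start, and 23 of these (63.9%) held the ISRE letters on either strand. The same letters stood in 1195 of 27305 genes with an entry (4.38%). In BST2 and ISG15 the window shows overlapping matches. The 13 members with an entry and without the letters were ADAR, CMPK2, HERC6, IFI35, IRF1, IRF9, MAVS, OAS1, RIGI, SAMD9L, STAT2, TBK1 and XAF1, which says only that these letters are not in the window. The letters stood both in members called higher (IFIT1) and in members called lower (DDX60) or near background (RSAD2).

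**Figure D1:**
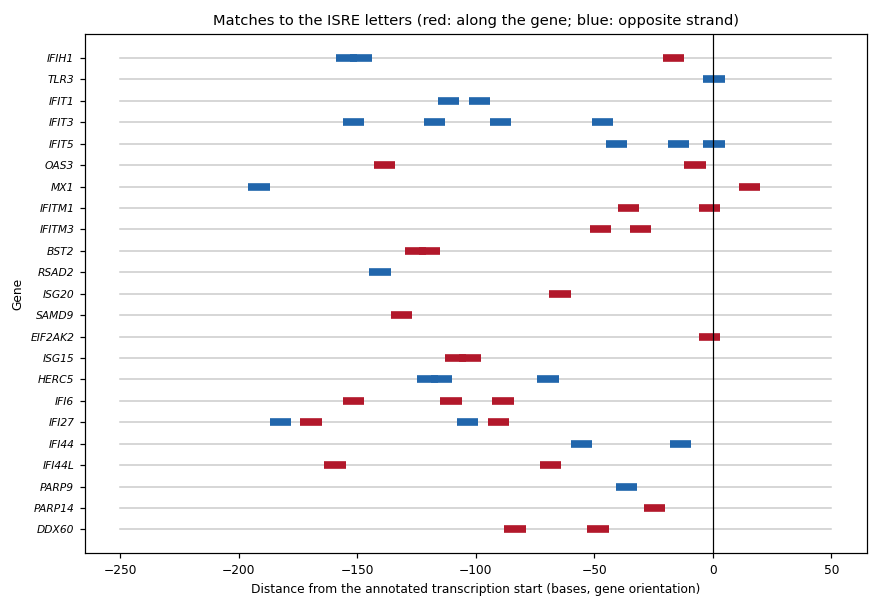
Positions of the ISRE letters in the promoter windows of the 23 members that held them, by distance in bases from the annotated transcription start along the gene; red bars lie along the gene and blue bars on the opposite strand. Nearly all matches lie upstream of the start, and several genes hold more than 1.

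The libraries held 20431557 to 54097984 reads assigned to transcripts in the nuclear fraction and 39476205 to 79731793 in the cytoplasmic fraction, with the wild-type libraries the shallowest of each. AGO1 mRNA in the cytoplasm went from 12.9 ± 1.97 TPM (transcripts per 1000000, SD, n = 3) in wild type to 0.887 ± 0.0157 in AGO1-/-, 0.920 ± 0.0780 in AGO1/2-/- and 0.918 ± 0.107 in AGO1/2/3-/- cells. In the same fraction AGO2 mRNA had means of 18.6 to 28.9 TPM in the 3 lines with an AGO2 edit, and AGO3 mRNA 8.64 TPM in AGO1/2/3-/-. Against wild type, AGO2 mRNA changed there by -0.67 in AGO2-/- (edgeR adjusted p = 2.63e-05), 0.31 in AGO1/2-/- (0.00266) and 0.11 in AGO1/2/3-/- (0.264), log2. AGO3 mRNA changed by 0.34 in AGO1/2/3-/- (0.00236). In the nucleus AGO2 mRNA gave -0.47, -0.18 (not called) and -0.44 in these lines. In the cytoplasm transcript level thus checks only the AGO1 edit in all its lines. Wild-type passage 29 stood somewhat apart: its mean correlation with the other wild-type libraries was 0.988 in the nucleus and 0.990 in the cytoplasm, against 0.992 or more for every other library and its group. There, 6 nuclear members (IRF7, OASL, IFITM1, BST2, ISG20 and IFI35) were over 2-fold higher than in the other passages, and IFIT3 and CMPK2 over 2-fold lower. Several results that rest on passage 29 are also given without it, but not all. Of 7 colon epithelial markers 6 exceeded 1 TPM (VIL1 was near 0); of 7 blood and immune markers only LYZ did, of 4 fibroblast markers only COL1A1, and none of 3 endothelial markers. LYZ stood at 1.49 ± 0.549 TPM in nuclear AGO1/2-/- against 0.0804 ± 0.0826 in wild type, while the summed immune markers ranged from 0.0967 to 2.98 TPM over all libraries.

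Most members were expressed at a low but measurable basal level in unstimulated HCT116 cells, and a set of classical interferon targets was near silent. In the wild-type nucleus 9 members reached 10 TPM (IFITM3, ADAR, IFITM2, IRF3, EIF2AK2, MAVS, TBK1, STAT2 and OAS3), 18 lay between 1 and 10, 11 between 0.1 and 1, and 9 below 0.1. In the wild-type cytoplasm the counts were 7, 18, 14 and 8. IFITM3, a membrane protein that blocks viral entry, was highest per length at 172 ± 3.13 TPM in the wild-type cytoplasm, and ADAR, the adenosine deaminase that edits double-stranded RNA, stood at 62.0 ± 8.22 TPM in the wild-type nucleus. CGAS, OAS2, MX2, RSAD2, SAMD9L, IFI44L and XAF1 passed the filter on low counts in neither fraction, and the most reads any of them had in a library was 10, for OAS2. RSAD2 (viperin) reached at most 7 reads and MX2 at most 5, in any line. ISG15, whose product is conjugated to proteins under interferon, did not exceed 17 reads or 0.343 TPM in any of the 30 libraries and passed the filter only in the cytoplasm, as did IFI44. Thus 38 members were tested in the nucleus and 40 in the cytoplasm.

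Of 9 interferon genes examined, 8 were at or near the counting limit. IFNB1, IFNA1, IFNK and IFNG had no read in any library, where the upper limit that a count of 0 allows (3 counts) corresponds to 0.147 counts per 1000000 reads in the shallowest library and 0.0376 in the deepest. IFNL1 had 4 reads over all 30 libraries, IFNL3 had 2, and IFNA2 and IFNL2 had 1 each. IFNE, a type I interferon that is known to be expressed constitutively in epithelium, had 1681 reads over the 30 libraries. It rose in the cytoplasm of AGO1/2-/- cells (log2 fold change 1.10, SE 0.38, adjusted p = 0.0273) and fell in the nucleus of AGO2-/- cells (log2 fold change -0.80, SE 0.24, adjusted p = 0.0138). In AGO1/2/3-/- cytoplasm it stood at 0.91 (adjusted p = 0.0792). These floors cover counting error only.

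**Figure D2:**
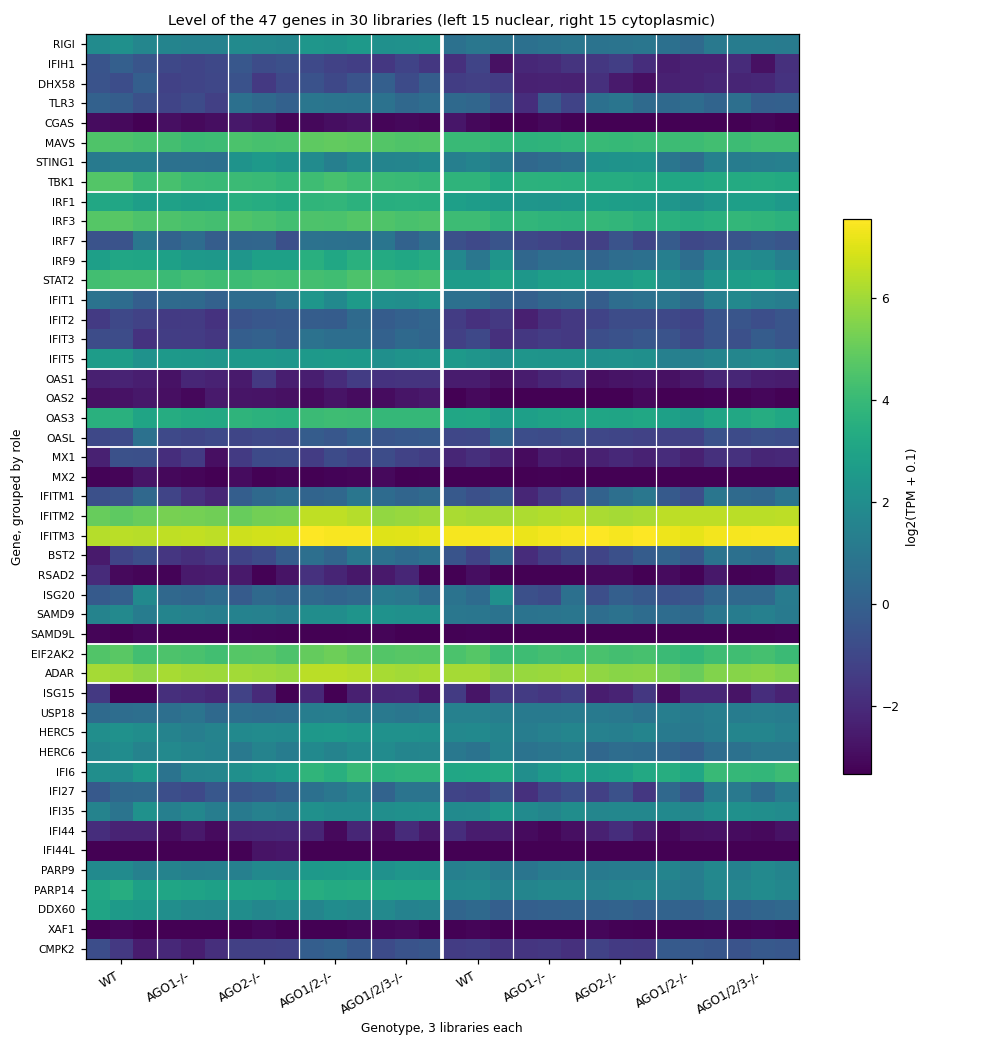
Level of each of the 47 genes as log2(TPM + 0.1) in each of the 30 libraries, in columns by genotype (nuclear left, cytoplasmic right) and in rows by role. The highest rows are IFITM3, IFITM2 and ADAR, and CGAS, OAS2, MX2, RSAD2, SAMD9L, IFI44L and XAF1 are dark in every library.

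Many members stood higher in the nucleus of both multiple-knockout lines than in wild type, among them IFIT1, IFIT2, IFIT3, IFI6, BST2, CMPK2, TLR3, IFITM2 and IFITM3. In the AGO1/2-/- nucleus 22 of 38 tested members rose and 3 fell, where 32.9% of all 18919 tested genes were called higher and 34.7% lower. The members' median log2 fold change was 0.52, against -0.06 over all genes. In the AGO1/2/3-/- nucleus 26 rose and 2 fell, against 29.1% higher and 29.5% lower of all genes, with a median of 0.64 against -0.03. The comparisons share the 3 wild-type libraries of a fraction, so their values are given side by side and not as independent evidence. A call is an adjusted p (Benjamini-Hochberg over all genes tested) of at most 0.05 in edgeR's quasi-likelihood test. Without wild-type passage 29 the counts were 28 higher and 2 lower in AGO1/2-/-, and 29 and 3 in AGO1/2/3-/-. Shares of all genes without that passage are not given, so a shift in these counts is not a result about the members.

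In the same nuclear libraries GAPDH mRNA, a cytoplasmic marker, rose (1.11 in AGO1/2-/- and 0.91 in AGO1/2/3-/-, log2) and MALAT1, a nuclear long non-coding RNA, fell (-1.18 and -0.95). Epithelial markers moved both ways. The keratins KRT8, KRT18 and KRT19 rose in both lines (KRT8 by 1.34 and 1.22), while the adhesion genes CDH1 (-2.18 and -1.49) and EPCAM (-0.56 and -0.38) fell. Their part in the nuclear results was not tested.

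In the cytoplasm, where GAPDH stood at 0.03 in AGO1/2-/- and rose by 0.24 in AGO1/2/3-/- on the log2 scale, fewer members were called. In AGO1/2-/- 14 of 40 tested members rose and 4 fell, against 23.9% higher and 25.4% lower of all 17605 tested genes, with a median of 0.18 against -0.01. In AGO1/2/3-/- 20 rose and 1 fell, against 18.6% higher and 20.0% lower, with a median of 0.30 against -0.01. The cytoplasmic split depended on the scaling: in limma on log2(TPM + 1), where the median of all genes lay at -0.20 in AGO1/2-/-, 6 members were called higher and 12 lower there, against 7.70% and 49.9% of all genes. In AGO1/2/3-/- the split on that scale was 12 and 5, against 8.11% and 37.8% of all genes, with their median at -0.13. On the same scale the nuclear splits were 23 and 2 in AGO1/2-/- (26.1% and 35.1% of all genes, median -0.07) and 16 and 4 in AGO1/2/3-/- (14.3% and 39.6%, median -0.16). Without wild-type passage 29 the cytoplasmic counts were 18 higher and 2 lower in AGO1/2-/-, and 22 and 2 in AGO1/2/3-/-, again without the shares of all genes.

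Across both fractions and both multiple knockouts 11 members were called higher each time: CMPK2, IFI6, IFIT1, IFIT2, IFIT3, IFITM2, IFITM3, MAVS, PARP9, RIGI and TLR3, of which RIGI and IFITM3 lay at -0.07 and -0.16 in AGO1/2-/- cytoplasm on the log2(TPM + 1) scale. Of the 16723 genes tested in both fractions, 12.9% were called higher in all of these comparisons, which share wild-type libraries. Of the 11 members, only IFIT2, IFIT3, IFITM2 and MAVS kept their cytoplasmic calls in both lines in every alternative tried. In the nucleus 22 members rose in both multiple knockouts and 2, IFIH1 and DDX60, fell in both, against 27.2% and 27.0% of all genes. In the cytoplasm 13 rose in both and IFIT5 fell in both, against 16.2% and 17.6%. The calls of 20 of the 25 members in nuclear AGO1/2-/- and 17 of the 28 in nuclear AGO1/2/3-/- held in every alternative tried, against 7 of 18 and 9 of 21 in the cytoplasm.

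**Figure D3:**
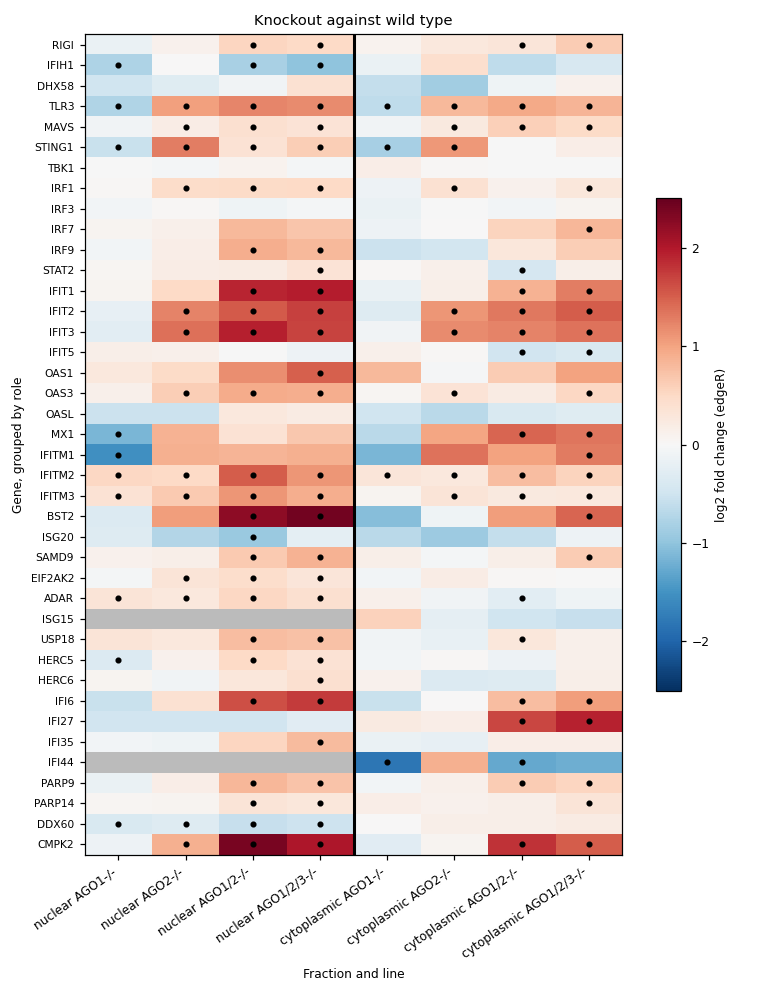
log2 fold change of each tested member against wild type in the 4 lines, nuclear left and cytoplasmic right, with rows by role; a dot marks an adjusted p of at most 0.05 and gray a gene not tested in that fraction. The IFIT1, IFIT2, IFIT3, IFITM2, IFITM3, BST2, IFI6, CMPK2 and TLR3 rows are red in both multiple knockouts, DDX60 is blue in the 4 nuclear columns, and TLR3 and STING1 are blue in AGO1-/- and red in AGO2-/-.

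Among the sensors and adaptors, 4 of the 7 tested in the nucleus rose in both multiple knockouts (RIGI, TLR3, MAVS and STING1) and IFIH1 fell in both. RIGI, the sensor of 5′-triphosphate RNA (chr9:32455302-32526208), stood at 19.0, 22 and 18.0 CPM (normalized counts per 1000000) in the wild-type nucleus, 27.9, 26.0 and 31.3 in AGO1/2-/- and 26.4, 27.8 and 29.2 in AGO1/2/3-/-. The knockout libraries lay above every wild-type library (log2 fold change 0.53, SE 0.08, adjusted p = 5.18e-05 in AGO1/2-/- and log2 fold change 0.50, SE 0.08, adjusted p = 1.27e-04 in AGO1/2/3-/-). In the cytoplasm RIGI was 8.57, 10.8 and 10.6 CPM in wild type and 15.8, 15.1 and 15.3 in AGO1/2/3-/- (log2 fold change 0.63, SE 0.12, adjusted p = 7.03e-04). In AGO1/2-/- the smaller difference (0.30, adjusted p = 0.0488) lost its call without AGO1/2-/- passage 9 or 11 or wild-type passage 27, and its sign turned on the TPM scale.

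IFIH1, the sensor of long double-stranded RNA and a relative of RIG-I, fell in the nucleus at a low level. It stood at 0.845, 1.25 and 1.12 CPM in the wild-type nucleus, 0.762, 0.546 and 0.512 in AGO1/2-/- and 0.499, 0.575 and 0.513 in AGO1/2/3-/-. The lines' ranges lay below the wild-type range (log2 fold change -0.81, SE 0.22, adjusted p = 0.00441 and log2 fold change -1.01, SE 0.23, adjusted p = 0.00144). AGO1-/- was also lower (log2 fold change -0.77, SE 0.23, adjusted p = 0.0203), a call lost without AGO1-/- passage 6 or 7 or wild-type passage 28 or 29, and AGO2-/- stood at 0.00 (adjusted p = 0.999). In the cytoplasm the wild-type passages alone ran from 0.0918 to 0.719 CPM, and no line was called (lowest adjusted p = 0.381). DHX58 (LGP2), the third member of that helicase family, was not called in any line (lowest adjusted p = 0.291 in the nucleus and 0.0727 in the cytoplasm). Its nuclear values ranged from 0.522 to 1.33 CPM over all lines.

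TLR3, the endosomal receptor for double-stranded RNA (chr4:186068911-186088073), was called in every line and both fractions, with opposite signs in the single knockouts. In the nucleus it stood at 2.43, 2.30 and 1.98 CPM in wild type, 1.01, 1.65 and 1.34 in AGO1-/-, 4.64, 4.88 and 4.20 in AGO2-/-, 5.60, 4.87 and 5.27 in AGO1/2-/- and 4.97, 5.33 and 4.97 in AGO1/2/3-/-. No AGO1-/- library reached a wild-type library, and every library of the 3 lines with an AGO2 edit exceeded all of them. The changes were log2 fold change -0.75, SE 0.17, adjusted p = 0.00354 in AGO1-/- and log2 fold change 1.03, SE 0.15, adjusted p = 8.43e-05 in AGO2-/-. They were log2 fold change 1.22, SE 0.14, adjusted p = 2.54e-06 in AGO1/2-/- and log2 fold change 1.18, SE 0.15, adjusted p = 5.74e-06 in AGO1/2/3-/-. In the cytoplasm the log2 fold changes in the same order were -0.64, 0.82, 0.95 and 0.84, with edgeR adjusted p of 0.0258, 0.00425, 2.87e-04 and 0.00113. The AGO1-/- call was lost without AGO1-/- passage 6 or 8 or wild-type passage 27 or 28. Cytoplasmic calls in AGO2-/-, AGO1/2-/- and AGO1/2/3-/- each held in 12 of 15 alternatives. On the log2(TPM + 1) scale these values were 0.36, 0.17 and 0.08.

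STING1, the adaptor of the DNA sensor cGAS (chr5:139475533-139482935), followed the same pattern in the single knockouts. Nuclear values were 5.46, 5.73 and 6.11 CPM in wild type, 3.58, 3.72 and 4.47 in AGO1-/- and 12.2, 14.6 and 15.1 in AGO2-/-, and cytoplasmic values were 6.06, 6.94 and 6.54 CPM in wild type, 3.01, 3.91 and 4.12 in AGO1-/- and 12.3, 14.4 and 14.6 in AGO2-/-. In both fractions AGO1-/- lay below and AGO2-/- above every wild-type library, and AGO2-/- had more than 2 times the wild-type mean. In AGO1-/- the changes were log2 fold change -0.55, SE 0.15, adjusted p = 0.0127 in the nucleus, lost without AGO1-/- passage 6 or 7, and log2 fold change -0.82, SE 0.15, adjusted p = 0.00319 in the cytoplasm. In AGO2-/- they were log2 fold change 1.28, SE 0.14, adjusted p = 9.09e-06 and log2 fold change 1.08, SE 0.15, adjusted p = 2.24e-04. The difference between the AGO1-/- and AGO2-/- lines was not itself tested. In AGO1/2-/- STING1 stood at 8.11, 5.79 and 8.34 CPM in the nucleus, overlapping wild type (log2 fold change 0.37, SE 0.14, adjusted p = 0.0315). That call was lost without AGO1/2-/- passage 9 or 11 or wild-type passage 27, and the cytoplasmic value was -0.01 (adjusted p = 0.977). AGO1/2/3-/- was higher in the nucleus (log2 fold change 0.62, SE 0.14, adjusted p = 0.00158) and at 0.17 in the cytoplasm (adjusted p = 0.396). In the wild-type nucleus 28.8% of its reads were assigned to coding transcripts, against 47.3% in the cytoplasm.

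MAVS, the adaptor that RIG-I and MDA5 share, exceeded 10 TPM in both wild-type fractions. In the cytoplasm it stood at 251, 259 and 253 CPM in wild type, 376, 395 and 385 in AGO1/2-/- and 339.5, 356 and 372 in AGO1/2/3-/-. All 6 multiple-knockout libraries exceeded all wild-type libraries (log2 fold change 0.60, SE 0.06, adjusted p = 8.55e-07 and log2 fold change 0.48, SE 0.06, adjusted p = 1.01e-05). In the nucleus MAVS was 335, 329.8 and 337 CPM in wild type, with log2 fold changes of 0.40 (adjusted p = 3.23e-06) in AGO1/2-/- and 0.34 (adjusted p = 2.52e-05) in AGO1/2/3-/-. AGO2-/- gave 0.18 (adjusted p = 0.00802) in the nucleus and 0.24 (adjusted p = 0.0101) in the cytoplasm on the normalized-count scale, but -0.06 and near 0 on the log2(TPM + 1) scale, and the cytoplasmic call was lost without AGO2-/- passage 10. TBK1, the kinase downstream of these adaptors, was called in no line (lowest adjusted p = 0.406 in the nucleus and 0.127 in the cytoplasm). Its nuclear means lay between 53.9 and 59.1 CPM and its cytoplasmic means between 49.8 and 56.8 CPM in the 5 genotypes. CGAS, the DNA sensor upstream of STING1, had at most 7 reads in any library.

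The transcription factors split by member. IRF1, a factor that is itself interferon-induced and also has basal activity, stood at 21.1, 22.3 and 19.2 CPM in the wild-type nucleus, 28.1, 29.0 and 28.7 in AGO2-/-, 28.0, 29.1 and 29.7 in AGO1/2-/- and 29.8, 29.5 and 29.6 in AGO1/2/3-/-. The 3 lines with an AGO2 edit did not overlap wild type (0.45, 0.47 and 0.50 on the log2 scale, with adjusted p of 4.38e-05, 5.30e-06 and 3.77e-06), and AGO1-/- stood at 0.03 (adjusted p = 0.787). In the cytoplasm IRF1 rose in AGO2-/- (log2 fold change 0.38, SE 0.07, adjusted p = 0.00246) and AGO1/2/3-/- (log2 fold change 0.29, SE 0.07, adjusted p = 0.00552) and stood at 0.11 in AGO1/2-/- (adjusted p = 0.221).

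IRF9, the DNA-binding subunit of the complex that holds STAT2, rose in the nucleus of both multiple knockouts (log2 fold change 0.91, SE 0.18, adjusted p = 3.23e-04 and log2 fold change 0.82, SE 0.18, adjusted p = 0.00102). It went from 5.56, 6.65 and 7.46 CPM in wild type to 11.8, 9.90 and 14.9 in AGO1/2-/- and 12.1, 9.83 and 12.7 in AGO1/2/3-/-. The size depended on the transcripts counted: it was 2.97 and 2.67 with coding transcripts only, and 0.39 and 0.27 on the log2(TPM + 1) scale, where the AGO1/2/3-/- call was lost (limma adjusted p = 0.117). In the cytoplasm its values overlapped wild type in AGO1/2-/- (0.29, adjusted p = 0.392). Wild-type passage 29, at 6.77 CPM, exceeded 2 of the 3 AGO1/2/3-/- libraries (0.61, adjusted p = 0.0817). With coding transcripts only, cytoplasmic IRF9 was called higher in AGO1/2-/- (0.696, edgeR adjusted p = 0.0468) and AGO1/2/3-/- (0.904, 0.0167). With length-scaled counts it stood at -0.235 and 0.239 in these lines, neither called. On that scale it was called lower in AGO1-/- (-1.177, edgeR adjusted p = 0.031) and AGO2-/- (-1.145, 0.0303). STAT2 rose in nuclear AGO1/2/3-/- (log2 fold change 0.34, SE 0.10, adjusted p = 0.0111), a value of -0.001 on the log2(TPM + 1) scale. It fell in cytoplasmic AGO1/2-/-, from 22.1, 23.4 and 30.6 to 18.4, 15.3 and 23.1 CPM (log2 fold change -0.42, SE 0.15, adjusted p = 0.0296). There the groups overlapped and the call was lost without AGO1/2-/- passage 9 or 10 or wild-type passage 29. IRF7, the factor that amplifies interferon-alpha production, rose in cytoplasmic AGO1/2/3-/- (log2 fold change 0.83, SE 0.26, adjusted p = 0.0192, lost without AGO1/2/3-/- passage 12 or wild-type passage 27 or 28). In the wild-type nucleus passage 29 alone stood at 2.79 CPM beside 0.880 and 0.586. IRF3, the constitutive factor that TBK1 activates, was called in no line in the main fit (lowest adjusted p = 0.161 and 0.128). Its nuclear means lay between 39.6 and 43.2 CPM and its cytoplasmic means between 24.1 and 28.2 CPM. With coding transcripts only, IRF3 was called higher in the nucleus of AGO2-/- (0.34, edgeR adjusted p = 0.00732), AGO1/2-/- (0.415, 7.59e-04) and AGO1/2/3-/- (0.406, 0.00111). On the log2(TPM + 1) scale it was called lower in the cytoplasm of AGO1/2-/- (-0.445, limma adjusted p = 8.23e-04) and AGO1/2/3-/- (-0.236, 0.0451).

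The IFIT genes lie side by side on chromosome 10 (IFIT2 at chr10:89283694-89309271, IFIT3 at chr10:89327307-89377473, IFIT1 at chr10:89392546-89406487 and IFIT5 at chr10:89414568-89421605) and encode proteins that bind foreign RNA ends and block its translation. IFIT1, IFIT2 and IFIT3 rose in both multiple knockouts and both fractions, and IFIT5 did not. IFIT1, whose promoter window shows a pair of matches to the ISRE letters, stood at 3.56, 2.89 and 2.11 CPM in the wild-type nucleus, 3.39, 3.51 and 5.24 in AGO2-/-, 11, 7.50 and 13.8 in AGO1/2-/- and 10.8, 10.6 and 12.4 in AGO1/2/3-/-. The lowest multiple-knockout library was more than 2 times the highest wild-type library (log2 fold change 1.91, SE 0.23, adjusted p = 3.23e-06 and log2 fold change 1.97, SE 0.23, adjusted p = 3.55e-06). In the cytoplasm the values were 3.41, 3.5 and 2.52 CPM in wild type, 5.79, 4.16 and 7.33 in AGO1/2-/- and 9.06, 7.30 and 6.66 in AGO1/2/3-/-. The AGO1/2-/- change (log2 fold change 0.87, SE 0.25, adjusted p = 0.00951) was lost without AGO1/2-/- passage 11, and AGO1/2/3-/- gave log2 fold change 1.29, SE 0.25, adjusted p = 9.21e-04. The single knockouts were not called for IFIT1 in either fraction.

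IFIT3 and IFIT2 also rose where AGO2 alone was lost. IFIT3 stood at 1.37, 1.38 and 0.629 CPM in the wild-type nucleus, 0.943, 1.02 and 0.881 in AGO1-/-, 2.86, 3.23 and 2.79 in AGO2-/-, 4.71, 4.20 and 4.39 in AGO1/2-/- and 3.09, 4.29 and 3.64 in AGO1/2/3-/-. The AGO2-/-, AGO1/2-/- and AGO1/2/3-/- libraries lay above every wild-type library, with changes of log2 fold change 1.37, SE 0.22, adjusted p = 1.80e-04, log2 fold change 1.95, SE 0.21, adjusted p = 9.21e-07 and log2 fold change 1.68, SE 0.21, adjusted p = 7.13e-06. Without wild-type passage 29, the lowest of them, the multiple-knockout values were 1.71 and 1.44. The cytoplasmic changes were log2 fold change 1.18, SE 0.23, adjusted p = 0.00339, log2 fold change 1.24, SE 0.23, adjusted p = 4.90e-04 and log2 fold change 1.35, SE 0.23, adjusted p = 3.41e-04. IFIT2 gave 1.06, 1.80 and 1.39 CPM in the wild-type nucleus and 2.86, 3.34 and 3.83 in AGO2-/- (log2 fold change 1.25, SE 0.25, adjusted p = 0.00106), and rose by 1.54 in AGO1/2-/- and 1.71 in AGO1/2/3-/- on the log2 scale (adjusted p = 4.59e-05 and 2.34e-05). In the cytoplasm it stood at 1.24, 0.853 and 1.24 CPM in wild type, 1.87, 2.59 and 2.69 in AGO2-/-, 2.60, 2.22 and 3.49 in AGO1/2-/- and 3.28, 2.75 and 3.51 in AGO1/2/3-/-. These too did not overlap wild type (log2 fold change 1.10, SE 0.28, adjusted p = 0.0168, log2 fold change 1.32, SE 0.28, adjusted p = 0.00135 and log2 fold change 1.52, SE 0.28, adjusted p = 6.45e-04). The AGO2-/- call was lost without AGO2-/- passage 9 or 10 or wild-type passage 28. IFIT5 fell in the cytoplasm of the multiple knockouts, from 28.6, 25.9 and 23.8 CPM in wild type to 18.4, 18.4 and 19.5 in AGO1/2-/- and 19.9, 21.2 and 19.4 in AGO1/2/3-/-. No multiple-knockout library reached the wild-type range (log2 fold change -0.48, SE 0.07, adjusted p = 4.16e-05 and log2 fold change -0.37, SE 0.07, adjusted p = 5.11e-04). In the nucleus IFIT5 means lay between 26.3 and 31.8 CPM in the 5 genotypes and no line was called (lowest adjusted p = 0.207).

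The OAS enzymes make short oligoadenylates when double-stranded RNA is present. OAS3, the most abundant of the 4 here, stood at 75.4, 78.5 and 58.1 CPM in the wild-type nucleus, 111, 107 and 108 in AGO2-/-, 129, 133 and 139.8 in AGO1/2-/- and 128, 133 and 136 in AGO1/2/3-/-. None of these lines overlapped wild type (0.62, 0.92 and 0.91 on the log2 scale, with adjusted p of 7.39e-05, 2.60e-07 and 4.62e-07). In the cytoplasm it rose in AGO1/2/3-/- (log2 fold change 0.51, SE 0.10, adjusted p = 0.00104) and in AGO2-/- (0.34, adjusted p = 0.0318, lost without AGO2-/- passage 8 or 10 or wild-type passage 27 or 29). It stood at 0.21 in AGO1/2-/- (adjusted p = 0.103). OAS1 never exceeded 25 reads or 0.278 TPM, and its nuclear call in AGO1/2/3-/- (log2 fold change 1.5, SE 0.53, adjusted p = 0.0242) was lost without AGO1/2/3-/- passage 12 or wild-type passage 27 or 28. OASL was called in no line (lowest adjusted p = 0.266 and 0.172). Its wild-type passage 29 stood at 4.85 CPM in the nucleus and 4.73 in the cytoplasm, against at most 1.64 CPM in passages 27 and 28.

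**Figure D4:**
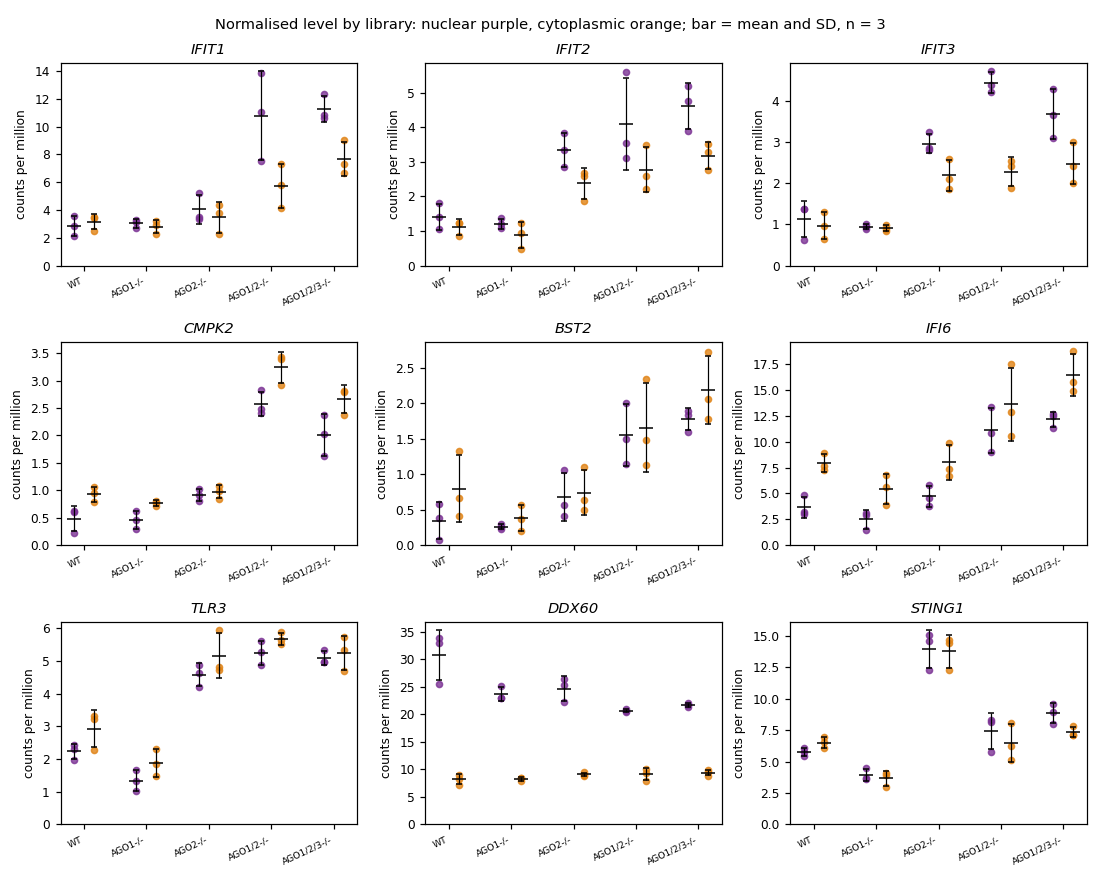
Normalized counts per 1000000 (CPM) of 9 members in each library, nuclear in purple and cytoplasmic in orange, with the mean and SD of 3 libraries per group. IFIT1, CMPK2, BST2 and IFI6 are high in AGO1/2-/- and AGO1/2/3-/-, IFIT2, IFIT3 and TLR3 are high in AGO2-/- as well, STING1 is highest in AGO2-/-, and nuclear DDX60 is highest in wild type.

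Among the restriction factors, IFITM2, IFITM3 and BST2 rose in the nucleus of both multiple knockouts and MX1 in their cytoplasm. IFITM2 (chr11:303655-309397) and IFITM3 (chr11:319676-329475) encode membrane proteins that block fusion of viruses. IFITM2 stood at 20.2, 18.1 and 23.3 CPM in the wild-type nucleus, 28.0, 30.3 and 29.7 in AGO1-/-, 24.8, 29.3 and 32.6 in AGO2-/-, 59.3, 60.2 and 56.1 in AGO1/2-/- and 41.3, 45.4 and 46.1 in AGO1/2/3-/-. It was the 1 member called higher in every line in both fractions, against 0.395% of the genes tested in both. The nuclear changes were 0.52, 0.49, 1.51 and 1.11 on the log2 scale (adjusted p = 0.00147, 0.00122, 5.08e-09 and 2.07e-07). The cytoplasmic changes were 0.31, 0.26, 0.77 and 0.56 (adjusted p = 0.00544, 0.0109, 2.34e-07 and 7.79e-06), and the cytoplasmic AGO2-/- call was lost without AGO2-/- passage 10. IFITM3 rose in the nucleus of the 4 lines as well. It went from 59.7, 62.8 and 68.1 CPM in wild type to 139.9, 133 and 137 in AGO1/2-/- and 112, 120.3 and 127 in AGO1/2/3-/- (log2 fold change 1.11, SE 0.08, adjusted p = 1.16e-08 and log2 fold change 0.92, SE 0.08, adjusted p = 1.26e-07). The IFITM genes are near-identical neighbors, so reads may be split among them and each value is uncertain to that extent.

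BST2 (tetherin), which holds budding viruses at the cell surface (chr19:17402939-17405630), was near background in the wild-type nucleus, with 2, 9 and 13 reads. Its nuclear level was 0.0704, 0.376 and 0.584 CPM in wild type, 1.5, 1.14 and 2.01 in AGO1/2-/- and 1.83, 1.59 and 1.89 in AGO1/2/3-/-. The multiple-knockout libraries did not overlap wild type (log2 fold change 2.23, SE 0.45, adjusted p = 4.13e-04 and log2 fold change 2.42, SE 0.45, adjusted p = 2.62e-04), and the single knockouts were not called. In the cytoplasm wild-type passage 29, at 1.33 CPM, overlapped AGO1/2-/- (1.05, adjusted p = 0.0565). The AGO1/2/3-/- values of 2.06, 1.78 and 2.72 CPM gave log2 fold change 1.45, SE 0.43, adjusted p = 0.0146, a call lost without AGO1/2/3-/- passage 14 or wild-type passage 27 or 28.

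MX1, a GTPase that traps viral ribonucleoproteins, stood at 0.171, 0.180 and 0.413 CPM in the wild-type cytoplasm, 0.828, 0.544 and 0.747 in AGO1/2-/- and 0.793, 0.537 and 0.607 in AGO1/2/3-/- (log2 fold change 1.46, SE 0.33, adjusted p = 0.00201 and log2 fold change 1.33, SE 0.33, adjusted p = 0.00532). On the log2(TPM + 1) scale these differences were 0.01 and 0.02. In the nucleus MX1 fell in AGO1-/- (log2 fold change -1.13, SE 0.40, adjusted p = 0.0448, lost without any 1 AGO1-/- passage or wild-type passage 28 or 29). IFITM1 also fell in nuclear AGO1-/- (log2 fold change -1.52, SE 0.47, adjusted p = 0.0249), a call lost without wild-type passage 29, AGO1-/- passage 7 or AGO1-/- passage 8, and rose in cytoplasmic AGO1/2/3-/- (1.29, adjusted p = 0.0314), a call lost without AGO1/2/3-/- passage 11 or 14 or wild-type passage 27 or 28. ISG20, an exonuclease, fell in nuclear AGO1/2-/- (log2 fold change -0.92, SE 0.28, adjusted p = 0.00927), where wild-type passage 29 stood at 8.85 CPM beside 3.70 and 3.47. Without passage 29 the value was -0.33 (adjusted p = 0.115). SAMD9, an inhibitor of viral replication, rose in the nucleus of both multiple knockouts (0.65 and 0.87, adjusted p = 1.85e-05 and 1.44e-06) and in the cytoplasm of AGO1/2/3-/- (log2 fold change 0.64, SE 0.10, adjusted p = 2.04e-04).

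EIF2AK2 (PKR), the kinase that shuts down translation when double-stranded RNA binds it, stood at 178, 185 and 136 CPM in the wild-type nucleus, 207, 208 and 210.0 in AGO2-/-, 218, 230.3 and 225 in AGO1/2-/- and 198, 206 and 214 in AGO1/2/3-/-. These 3 lines lay above every wild-type library (0.32, 0.43 and 0.31 on the log2 scale, with edgeR adjusted p of 0.00791, 4.16e-04 and 0.0064). On the log2(TPM + 1) scale the values were 0.102, 0.462 and 0.137, and the calls held in 11, 14 and 11 of 15 alternatives. In the cytoplasm no line was called (lowest adjusted p = 0.15) and the means lay between 142 and 169 CPM.

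ADAR (chr1:154581695-154628013) rose in the nucleus of every line, from 411, 396 and 364 CPM in wild type to 481, 492 and 488 in AGO1-/-, 461, 475 and 464 in AGO2-/-, 555, 570.4 and 551 in AGO1/2-/- and 501, 507 and 537 in AGO1/2/3-/-. Every knockout library exceeded every wild-type library, with changes of 0.32, 0.26, 0.52 and 0.40 on the log2 scale (edgeR adjusted p = 5.82e-04, 0.00167, 7.55e-07 and 1.53e-05). On the log2(TPM + 1) scale the values were 0.075, -0.001, 0.456 and 0.157. The AGO1-/-, AGO2-/- and AGO1/2/3-/- calls each held in 13 of 15 alternatives. In the cytoplasm ADAR fell in AGO1/2-/-, from 462, 466 and 401 to 386, 339 and 387 CPM (log2 fold change -0.26, SE 0.07, adjusted p = 0.00695), and stood at -0.11 in AGO1/2/3-/- (adjusted p = 0.219).

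ADAR makes an interferon-inducible long form, p150, and a constitutive shorter form, p110, from different starts. The transcript ADAR-202, which encodes 1226 residues, held 25.1% ± 4.68 (SD, n = 3) of the TPM of the 3 coding transcripts examined in the wild-type nucleus, 29.7% ± 1.57 in AGO1/2-/- and 29.0% ± 1.0 in AGO1/2/3-/-. In the cytoplasm the share was 26.3% ± 3.96 in wild type, 33.0% ± 0.657 in AGO1/2-/- and 35.3% ± 2.82 in AGO1/2/3-/-, and ADAR-201, which encodes 931 residues, went from 28.2 ± 2.23 TPM in wild type to 15.5 ± 1.97 and 18.3 ± 0.185. The third transcript, ADAR-208, encodes 1200 residues and held 19.5% ± 1.14 in the wild-type nucleus and 22.3% ± 1.49 in the wild-type cytoplasm. Its cytoplasmic share was 22.1% ± 0.733 in AGO1/2-/- and 21.8% ± 1.49 in AGO1/2/3-/-. The share of ADAR-202 alone need therefore not be that of all long forms. All these shares rest on the assignment of reads to overlapping transcripts by the authors' quantifier and were not tested.

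**Figure D5:**
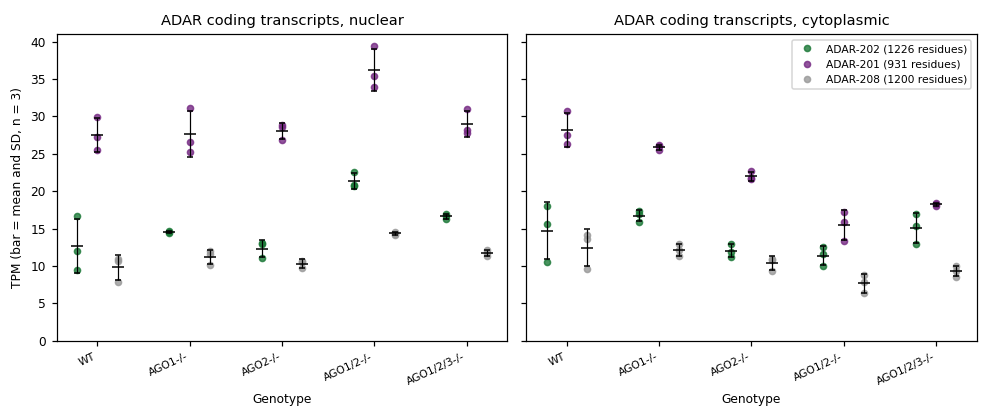
TPM of 3 ADAR coding transcripts in each library, nuclear left and cytoplasmic right, with the mean and SD of 3 libraries per group. In the cytoplasm ADAR-201 stands at 15.5 TPM in AGO1/2-/- and 18.3 in AGO1/2/3-/- against 28.2 in wild type, while ADAR-202 stays between 11.4 and 16.7 in the 5 genotypes.

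Of the genes of ISG15 conjugation, USP18 and HERC5 rose in the nucleus of both multiple knockouts and HERC6 in that of AGO1/2/3-/- (0.41, adjusted p = 0.0176, lost without AGO1/2/3-/- passage 14 or wild-type passage 27). USP18, the protease that removes ISG15 and damps interferon signaling, stood at 2.96, 3.35 and 3.91 CPM in the wild-type nucleus, 5.78, 6.00 and 5.58 in AGO1/2-/- and 5.64, 5.41 and 5.94 in AGO1/2/3-/- (0.77 and 0.74 on the log2 scale, adjusted p = 8.64e-05 and 1.78e-04). In the cytoplasm of AGO1/2-/- it rose by 0.28 (adjusted p = 0.00676), a value of -0.09 on the log2(TPM + 1) scale. USP18 has related copies on its chromosome, so its count is uncertain. HERC5, the ligase that attaches ISG15, rose from 15.7, 17.8 and 15.5 CPM in the wild-type nucleus to 22.6, 24.2 and 22.7 in AGO1/2-/- and 20.7, 21.8 and 20.8 in AGO1/2/3-/- (0.50 and 0.37, adjusted p = 4.40e-05 and 9.55e-04). It fell in nuclear AGO1-/- (log2 fold change -0.33, SE 0.08, adjusted p = 0.00679). ISG15 itself ranged from 0.0285 to 0.229 CPM in the cytoplasm and was called in no line (lowest adjusted p = 0.53).

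CMPK2, a mitochondrial nucleotide kinase (chr2:6840570-6866635), gave the largest fold among the named members in 2 of the 4 multiple-knockout comparisons. It stood at 0.598, 0.627 and 0.225 CPM in the wild-type nucleus, 2.49, 2.83 and 2.42 in AGO1/2-/- and 1.62, 2.38 and 2.02 in AGO1/2/3-/-, and at 0.950, 1.05 and 0.780 CPM in the wild-type cytoplasm, 3.40, 3.43 and 2.92 in AGO1/2-/- and 2.37, 2.79 and 2.82 in AGO1/2/3-/-. Multiple-knockout and wild-type ranges did not overlap in either fraction. The changes were log2 fold change 2.38, SE 0.29, adjusted p = 3.54e-06 and log2 fold change 2.02, SE 0.30, adjusted p = 3.16e-05 in the nucleus, or 2.09 and 1.73 without wild-type passage 29, the lowest of its group. In the cytoplasm they were log2 fold change 1.80, SE 0.15, adjusted p = 2.78e-07 and log2 fold change 1.52, SE 0.15, adjusted p = 2.35e-06. CMPK2 overlaps RSAD2 on the opposite strand, but RSAD2 had at most 7 reads. In nuclear AGO2-/- the smaller change (log2 fold change 0.89, SE 0.32, adjusted p = 0.036) was lost in 8 of 15 alternatives, among them without AGO2-/- passage 8 or 9 or wild-type passage 29.

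IFI6, a mitochondrial and endoplasmic reticulum protein that is anti-apoptotic and antiviral (chr1:27666064-27672212), rose in both multiple knockouts. Nuclear values went from 3.17, 3.01 and 4.81 CPM in the wild-type nucleus to 10.9, 9.04 and 13.4 in AGO1/2-/- and 11.4, 12.7 and 12.5 in AGO1/2/3-/- (log2 fold change 1.61, SE 0.23, adjusted p = 2.11e-05 and log2 fold change 1.74, SE 0.23, adjusted p = 1.37e-05). In the cytoplasm they went from 7.26, 7.68 and 8.92 CPM in wild type to 12.8, 10.6 and 17.5 in AGO1/2-/- and 15.8, 14.9 and 18.8 in AGO1/2/3-/-. The groups did not overlap in either fraction (log2 fold change 0.78, SE 0.21, adjusted p = 0.00698 and log2 fold change 1.05, SE 0.21, adjusted p = 0.00121 in the cytoplasm). PARP9, a member of the ADP-ribosyltransferase family that acts in interferon signaling, rose by 0.83 and 0.71 in the nucleus and by 0.63 and 0.54 in the cytoplasm of AGO1/2-/- and AGO1/2/3-/- on the log2 scale (adjusted p = 9.59e-06, 6.50e-05, 4.16e-04 and 0.00185). PARP14, of the same family, rose in the nucleus of both lines (0.32 and 0.28, adjusted p = 1.90e-04 and 9.73e-04; -0.05 in AGO1/2/3-/- on the log2(TPM + 1) scale). Its cytoplasmic rise in AGO1/2/3-/- (0.32, adjusted p = 0.0187) was lost without AGO1/2/3-/- passage 12 or wild-type passage 27 or 29. IFI35 rose in the AGO1/2/3-/- nucleus, from 2.82, 1.97 and 5.53 CPM in wild type to 5.52, 6.01 and 6.18 (0.79, adjusted p = 0.0102), where wild-type passage 29 overlapped the line; without that passage the value was 1.31.

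IFI27, among the most inducible interferon targets, rose in the cytoplasm of both multiple knockouts (log2 fold change 1.67, SE 0.35, adjusted p = 0.00108 and log2 fold change 1.93, SE 0.34, adjusted p = 4.60e-04). It went from 0.219, 0.225 and 0.367 CPM in wild type to 0.742, 0.603 and 1.25 in AGO1/2-/- and 1.10, 0.760 and 1.25 in AGO1/2/3-/-. In the nucleus its total was 1.73, 1.55 and 1.89 CPM in wild type and 0.918, 1.07 and 1.68 in AGO1/2-/- (-0.48, adjusted p = 0.0766). Of the wild-type nuclear reads 9.53% were assigned to coding transcripts, against 51.1% in AGO1/2-/- and 46.6% in AGO1/2/3-/-. The coding transcripts alone stood at 0.264 ± 0.152 TPM in the wild-type nucleus, 1.61 ± 0.525 in AGO1/2-/- and 1.11 ± 0.370 in AGO1/2/3-/-. With coding transcripts only, IFI27 rose in the nucleus too (log2 fold change 1.63, SE 0.53, adjusted p = 0.014 in AGO1/2-/- and 1.78, SE 0.53, adjusted p = 0.00993 in AGO1/2/3-/-). Its wild-type nuclear libraries then rest on 2 to 6.4 estimated reads each.

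DDX60, a helicase described as a cofactor of RIG-I (chr4:168216291-168318883), was the 1 member called lower in the nucleus of every line, against 6.67% of all genes. It stood at 33.9, 33.0 and 25.6 CPM in wild type, 22.9, 25.2 and 22.9 in AGO1-/-, 26.5, 25.3 and 22.2 in AGO2-/-, 20.6, 20.4 and 20.9 in AGO1/2-/- and 21.3, 22.1 and 21.6 in AGO1/2/3-/-. Wild-type passage 29 overlapped the AGO2-/- range and lay above the other lines. The log2 fold changes were -0.38 (adjusted p = 0.00668), -0.32 (adjusted p = 0.0125), -0.58 (adjusted p = 5.68e-05) and -0.51 (adjusted p = 2.50e-04) in that order of lines, each with SE 0.09. The AGO2-/- call was lost without AGO2-/- passage 10 or wild-type passage 27 or 28. In the cytoplasm DDX60 stood at 7.25 to 10.0 CPM over all 15 libraries and was called in no line (lowest adjusted p = 0.134). IFI44, with at most 20 reads in any library, fell in cytoplasmic AGO1-/- (log2 fold change -1.81, SE 0.51, adjusted p = 0.0324) and AGO1/2-/- (log2 fold change -1.29, SE 0.48, adjusted p = 0.0482), calls that were each lost without any 1 passage of the line or wild-type passage 27 or 29.

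The single knockouts gave fewer calls; in their nuclei GAPDH rose by 0.60 in AGO1-/- and 0.60 in AGO2-/- on the log2 scale. In the AGO1-/- nucleus 3 members rose (IFITM2, IFITM3 and ADAR) and 7 fell (IFITM1, MX1, IFIH1, TLR3, STING1, DDX60 and HERC5), against 14.3% higher and 15.6% lower of all tested genes. The member median was -0.08. On the log2(TPM + 1) scale 1 was called higher and 9 lower, against 1.91% and 30.5% of all genes, whose median was -0.17. IFITM3 was 74.0, 87.6 and 83.6 CPM there, above all wild-type libraries (log2 fold change 0.36, SE 0.08, adjusted p = 0.00282). In the AGO1-/- cytoplasm IFITM2 rose and IFI44, STING1 and TLR3 fell, against 4.28% higher and 8.13% lower (1 and 8 members on the log2(TPM + 1) scale, against 1.35% and 17.1% of all genes, median -0.08). In the AGO2-/- nucleus 12 rose and DDX60 fell, against 20.2% higher and 19.9% lower, with a median of 0.18. On the log2(TPM + 1) scale, where the median of all genes was -0.17, 6 members were called higher and 3 lower, against 3.59% and 33.4% of all genes. In the AGO2-/- cytoplasm all 9 called members rose (IFIT3, IFIT2, STING1, TLR3, IRF1, OAS3, IFITM3, IFITM2 and MAVS), against 7.07% higher and 9.0% lower of all genes; on the TPM scale 3 were called higher and 5 lower, against 1.73% and 27.2% of all genes, whose median was -0.13.

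The further loss of AGO3 was accompanied by few differences. Between AGO1/2/3-/- and AGO1/2-/- nuclei 1 of 38 members was called: IFITM2 was lower (log2 fold change -0.40, SE 0.09, adjusted p = 0.0376), where 1.74% of all genes were called higher and 1.74% lower. In the cytoplasm STAT2 (log2 fold change 0.56, SE 0.15, adjusted p = 0.0453) and SAMD9 (log2 fold change 0.49, SE 0.10, adjusted p = 0.0249) were higher in AGO1/2/3-/-, where 2.47% of all genes were called higher and 2.48% lower. The IFITM2 and STAT2 calls were each lost without AGO1/2-/- passage 9 or 10 or any 1 AGO1/2/3-/- passage, and the SAMD9 call without AGO1/2-/- passage 9 or 10 or AGO1/2/3-/- passage 11 or 12. For IFIT1, CMPK2 and TLR3 in the nucleus the differences were 0.06 (SE 0.20), -0.36 (SE 0.23) and -0.04 (SE 0.13).

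In wild-type cells the members' RNA was spread over both fractions, relative to the other RNAs of each fraction. Of 37 members tested, 8 were higher in the nucleus and 9 in the cytoplasm, against 35.9% and 34.8% of all 17523 genes. With the passage as a replicate block, 11 were higher in the nucleus and 17 in the cytoplasm, against 40.3% and 41.3% of all genes. Members with more nuclear signal included IFI27 (2.26), DDX60 (1.52), PARP14 (0.78), STAT2 (0.64) and RIGI (0.59), log2 of nuclear over cytoplasmic, with adjusted p of 2.60e-04, 9.57e-05, 5.46e-04, 0.00524 and 0.00616. For IFI27 only 9.53% of the nuclear reads were assigned to coding transcripts, against 80.3% of the cytoplasmic ones. Its coding transcripts stood at 0.264 ± 0.152 TPM in the nucleus and 0.395 ± 0.134 in the cytoplasm, and with length-scaled counts its difference was 0.65 (adjusted p = 0.157). Those with more cytoplasmic signal included IFITM2 (-1.66), IFITM3 (-1.56), IFI6 (-1.52), USP18 (-1.40) and CMPK2 (-1.30), with adjusted p of 1.04e-05, 8.91e-06, 3.04e-04, 1.01e-04 and 0.0168. IRF3 and IRF1 were called higher in the nucleus (0.26 and 0.31), but IRF1 changed sign with length-scaled counts and IRF3 with coding transcripts only (-0.68, adjusted p = 0.00121), and both calls and that of DHX58 were lost without any 1 of 5 of the 6 libraries. On the log2(TPM + 1) scale the split was 14 higher in the nucleus and 4 in the cytoplasm, against 50.9% and 16.5% of all genes. MALAT1 and GAPDH differed between the same fractions by 3.87 and -1.16.

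The change in AGO1/2/3-/- cells differed between the fractions for 6 of 39 members by a test of the difference itself. The nuclear change was above the cytoplasmic one for ADAR, IFITM2, IFITM3 and USP18 and below it for DDX60 and IFI27, against 10.3% and 6.64% of all 18916 genes. The difference (nuclear minus cytoplasmic log2 fold change) was 0.63 (adjusted p = 0.0033) for IFITM3, 0.60 (adjusted p = 0.0205) for USP18, 0.52 (adjusted p = 0.0125) for IFITM2 and 0.49 (adjusted p = 0.0189) for ADAR. It was -0.73 (adjusted p = 0.0132) for DDX60, which fell in the nucleus and was not called in the cytoplasm. For IFI27 it was -2.24 (adjusted p = 0.00254) over all its transcripts and -0.40 (adjusted p = 0.773) with coding transcripts only. GAPDH differed by 0.65 (adjusted p = 0.00831) and MALAT1 by -1.29 (adjusted p = 0.00591) in the same test; their part in these differences was not tested. With the passage as a replicate block 12 members were called, 10 higher and 2 lower, against 21.6% and 11.5% of all genes. The 6 added were EIF2AK2, IFI35, IFI6, IFIT1, OAS3 and STING1, with IFIT1 at 0.68 (adjusted p = 0.0171). Without the block the difference did not pass the threshold for the IFIT genes, CMPK2 and TLR3, with values of 0.66 (SE 0.27) for IFIT1, 0.48 (SE 0.39) for CMPK2 and 0.32 (SE 0.23) for TLR3.

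A second list of 84 other genes of interferon signaling and nucleic acid sensing was counted in the same fits. In the nucleus 35 of 62 tested rose and 8 fell in AGO1/2-/-, against 32.9% and 34.7% of all genes. In AGO1/2/3-/- 33 rose and 7 fell, against 29.1% and 29.5%. The counts were 23 and 7 in AGO2-/- (20.2% and 19.9% of all genes) and 13 and 9 in AGO1-/- (14.3% and 15.6%). In the cytoplasm the counts of 63 tested were 19 and 20 in AGO1/2-/-, 13 and 10 in AGO1/2/3-/-, 7 and 6 in AGO2-/-, and 1 and 8 in AGO1-/-. Of 9 receptors and kinases, 7 rose in the nucleus of AGO1/2-/- and 8 in that of AGO1/2/3-/-, against 32.9% and 29.1% of all genes. JAK1, which couples to the interferon receptors, gave 1.08 and 0.98 there (edgeR adjusted p = 2.67e-09 and 1.12e-08), but fell in nuclear AGO1-/- (-0.50, adjusted p = 9.60e-05). SOCS3, a feedback inhibitor of cytokine signaling, rose by 1.33 and 1.26 in the nucleus and 1.14 and 1.13 in the cytoplasm (adjusted p = 4.80e-09, 1.40e-08, 2.59e-07 and 3.97e-07). The ligase TRIM25, which acts on RIG-I signaling, fell in the cytoplasm of AGO1/2-/- (-0.85, adjusted p = 3.77e-06). In the nucleus 9 of these genes rose in all 4 lines (IRF2BP1, NFKB1, PML, RELA, SAMHD1, TAP1, TICAM1, TRAF3 and ZC3HAV1), against 6.71% of all genes, and in the cytoplasm only JAK1 was called in all 4, with mixed signs.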

How the data were processed

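Nuclear and cytoplasmic RNA of 5 genotypes (3 passages each) was analyzed; 8 further samples (AGO2 eCLIP) were not used here. Per the labels and the study's methods, the authors depleted ribosomal RNA, made stranded paired-end libraries and used the hg38 build; the submitters' processing notes name STAR 2.5.3a, Salmon 0.11.0 and DESeq2. The deposited files hold, per transcript, an estimated count and a TPM value from the authors' quantifier; neither was normalized between libraries. Estimated counts of 196040 of 200401 transcripts were matched to GENCODE release 44 (4361 unmatched, 2.23 to 4.01% of reads), summed per gene and rounded.

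Each fraction's 15 libraries were fitted together with edgeR 4.0.16 (R 4.3.3; TMM, filterByExpr with a minimum count of 10, quasi-likelihood test, Benjamini-Hochberg over all genes; a call is an adjusted p up to 0.05). CPM are TMM-normalized counts per 1000000; levels between genes were compared as TPM. Alternatives used DESeq2 1.42.0, RLE factors, other filters, length-scaled counts, limma 3.58.1 on log2(TPM + 1) or log2(TPM + 0.1), coding transcripts only, 2 groups only, each library left out, and a replicate block. The scripts were tested on simulated data with 200 genes changed 2-fold. For AGO1/2/3-/- against wild type 68.5% of them were recovered in the nucleus and 71.5% in the cytoplasm. Between wild-type fractions 50.5% were recovered, and 47% for the difference between fractions, so a missing call does not show that a gene was unchanged. Same-passage nuclear and cytoplasmic deviations correlated at 0.255, 0.242 and 0.537 in wild type and at -0.01, 0.057 and 0.045 in AGO1/2/3-/-, by the passage numbers of the labels. Unlike wild-type passages 27 and 28 correlated at 0.229 and 0.26, as much as like ones, and only passage 29 stood apart. Deviations were taken from the mean of 3 passages, so an outlying passage 29 draws 27 and 28 together. These correlations therefore cannot decide whether passages are paired. The block on passage was therefore fitted as an alternative; every adjusted p not named as blocked is from the fit without it. Tables of coordinates are on hg38. Members and lists were chosen with earlier results of these data known. Some genes of the second list are not reported here by name. Named with full statistics in each knockout comparison are at most 5 higher and 5 lower called members of largest change; sensors, factors, ADAR and EIF2AK2 are given whatever they did, and other members named in the text were chosen after their values were seen. Wild-type libraries are the shallowest, so low wild-type values are the least precise.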

Additional observations from a re-analysis of the deposited data

Results flagged for a closer look

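In AGO1/2/3-/- cells 6 of 39 tested members were singled out by the interaction test in edgeR. Their change differed between the nuclear and the cytoplasmic fraction. Of these 4 were higher and 2 lower, against 10.3% and 6.64% of all 18916 genes, so their number is not a result about the members. GAPDH differed by 0.65 and MALAT1 by -1.29 in the same test, and their part was not tested. The nuclear minus cytoplasmic log2 difference was 0.49 for ADAR (adjusted p = 0.0189), 0.52 for IFITM2 (0.0125), 0.63 for IFITM3 (0.0033), 0.6 for USP18 (0.0205), -0.73 for DDX60 (0.0132) and -2.24 for IFI27 (0.00254). The ADAR call was lost without nuclear wild-type passage 28 and the USP18 call without nuclear wild-type passage 27 or 28. For IFI27 the difference was -0.40 (adjusted p = 0.773) when coding transcripts alone were summed.

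Another 3 results were singled out because every library of a line lay on one side of wild type in the nucleus and on the other in the cytoplasm. USP18 in AGO2-/- had log2 fold changes of 0.27 in the nucleus and -0.19 in the cytoplasm, ADAR in AGO1/2-/- of 0.52 and -0.26, and HERC5 in AGO1/2-/- of 0.5 and -0.12. These differences between fractions were not tested. The share of all genes that meet the same rule is not given, so their number is not a result about the members.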

How the results depend on the processing

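With a replicate block on passage, 28 members were called between wild-type fractions (17 without it). Over all 17523 genes the calls were 14296 with the block and 12380 without it. For the AGO1/2/3-/- difference between fractions 12 were called (10 higher, 2 lower), against 6 without the block. Over all 18916 genes these calls were 6251 and 3203. Same-passage deviations correlated at 0.255, 0.242 and 0.537 in wild type and at -0.01, 0.057 and 0.045 in AGO1/2/3-/-. The cause of the change in counts was not tested. Member counts moved by over 1.5 times in these alternatives too. Calls over all genes are given beside them, and a shift in a member count alone is not a result about the members. Nuclear AGO1-/-: 4 with only the 2 groups compared (all genes: 3747 of 17580, against 5651 of 18919 in the main fit). Nuclear AGO1/2/3-/- against AGO1/2-/-: 2 with DESeq2, 5 and 4 with limma on log2(TPM + 1) and log2(TPM + 0.1), and 0 with length-scaled counts or coding transcripts only. All genes there gave 659 of 18919 in the main fit, 2177 of 13938 with DESeq2, and 2297 and 2178 of 18919 with limma. They gave 242 of 18952 with length-scaled counts and 116 of 13190 with coding transcripts only. Cytoplasmic AGO1-/-: 9 and 10 with limma, and 2 with coding transcripts or the 2 groups only. All genes there gave 2185 of 17605 in the main fit and 3243 and 3135 of 17605 with limma. They gave 1952 of 13309 with coding transcripts and 832 of 15986 with the 2 groups only. Cytoplasmic AGO1/2/3-/- against AGO1/2-/-: 6 with DESeq2, 4 with log2(TPM + 0.1), 1 with coding transcripts and 0 with the 2 groups only. All genes there gave 872 of 17605 in the main fit, 2120 of 13471 with DESeq2 and 1160 of 17605 with log2(TPM + 0.1). They gave 859 of 13309 with coding transcripts and 1 of 16509 with the 2 groups only. The AGO1/2/3-/- difference between fractions: 3 with coding transcripts (all genes: 1759 of 13279, against 3203 of 18916 in the main fit). Leaving out each library gave, in the nucleus, 6 to 10 (AGO1-/-), 12 to 16 (AGO2-/-), 24 to 30 (AGO1/2-/-), 26 to 32 (AGO1/2/3-/-) and 0 to 3 (AGO1/2/3-/- against AGO1/2-/-). In the cytoplasm the same ranges were 2 to 3, 5 to 9 (5 without AGO2-/- passage 10), 15 to 20, 17 to 24 and 0 to 6 (6 without AGO1/2-/- passage 11). They were 13 to 20 between wild-type fractions and 4 to 9 for the difference between fractions. Shares of all genes are not given for these leave-out fits. Over all 154 called member values there were 2321 alternative values: 2025 kept call and direction, 279 lost the call and 17 changed sign. The sign changes touched 10 called values: MAVS (both fractions) and ADAR in AGO2-/-, STAT2 and PARP14 in nuclear AGO1/2/3-/-, RIGI, IFITM3 and USP18 in cytoplasmic AGO1/2-/-, and IRF1 and IRF3 between wild-type fractions, of which IRF3 was also called in the other direction. Of all genes called, limma on log2(TPM + 1) put 13.4% higher in cytoplasmic AGO1/2-/- (48.5% in edgeR) and 26.5% in nuclear AGO1/2/3-/- (49.7%). Members under about 1 CPM rest on few reads, fewest in wild type.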
